A study of Mus musculus with 6 samples.

Results

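Expression of 10 genes of the secretory granule was followed in mouse islet RNA: the granins Chga, Chgb, Scg2, Scg3 and Vgf, the processing enzymes Pcsk1, Pcsk2 and Cpe, and the convertase partners Scg5 and Pcsk1n. They were taken by symbol from the authors' deposited table and are 10 of its 19940 genes. Each symbol stood on 1 gene, and all 10 had at least 1000 mean reads over both groups. The libraries came from hand-picked pancreatic islets of C57BL6/J mice, with 3 libraries from the pregnant group (gestational day 14.5) and 3 from the nonpregnant group, labelled as littermates. Neither a genetic change nor a drug is named for either group. The design text gives 5 animals per group, and the labels do not say whether a library is 1 animal. The table holds 1 mean read count per group and gene, so no value per library, SD or overlap between groups can be given.

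Granins are acidic proteins that condense with hormones in dense-core granules and help to form these granules in endocrine cells and neurons. Inside the granule, the prohormone convertases PC1/3 (Pcsk1) and PC2 (Pcsk2) cut precursors such as proinsulin and proglucagon after pairs of basic residues, and carboxypeptidase E (Cpe) trims the exposed ends. The protein 7B2 (Scg5) is needed for PC2 to mature, and proSAAS (Pcsk1n) can inhibit PC1/3.

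Of the 10 genes, 2 rose and 0 fell in pregnant islets by the adjusted p of the authors' deposited table, with 0.05 as the threshold. By the same rule 11.7% of all genes passed, 7.57% as higher and 4.15% as lower. Among the 8796 genes with at least 1000 mean reads, 16.2% passed, 9.8% as higher and 6.43% as lower. The share was larger among abundant genes. Of the 111 genes with at least as many mean reads as Pcsk1n, the lowest of the 10 after Vgf, 30.6% passed, 19.8% as higher and 10.8% as lower. A count of 2 in 10 is near these shares. The 2 genes were Chgb, at a fold change of 5.54, and Pcsk1, at 1.57, as the authors' deposited table gives them. The other granins and enzymes did not pass. Chgb and Pcsk1 also had a full cyclic AMP response element in their promoter window, and so did Scg2, which did not pass.

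This element, TGACGTCA, is the binding site of CREB family factors and is known from granin promoters. It was searched on both strands in RefSeq windows of GRCm38.p6 that run from 250 bases before to 50 bases after a gene's start. A window was found for 8 of the 10 genes, and Cpe and Vgf were not matched. The element lay in the windows of 3 genes, Chgb, Pcsk1 and Scg2. It was in 1.79% of all 32851 windows, and 2.03% of the 27025 genes with a window held it. The sites are shown because their position from the RefSeq start is alike in genes whose read means moved differently. The element is in capitals, with 30 bases in all, 5′ to 3′ on the gene's strand:
Chgb, plus strand of chr2:132781559-132781588: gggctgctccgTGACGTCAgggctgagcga
Pcsk1, plus strand of chr13:75089768-75089797: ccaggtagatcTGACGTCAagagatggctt
Scg2, minus strand of chr1:79440076-79440105: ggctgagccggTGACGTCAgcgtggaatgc

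The element began 72 bases before the RefSeq start in Chgb, 78 in Pcsk1 and 68 in Scg2. In GENCODE M21 the models of Chgb, Pcsk1 and Scg2 start farther upstream. The sites of Chgb and Scg2 fall inside an annotated exon there, and that of Pcsk1 does not. The likeness of position is thus to the RefSeq starts only. A match is a run of letters, and no factor binding was measured. Among the 6433 genes with at least 1000 mean reads and a promoter window, 251 held the element. Of these, 6.37% were higher and 6.37% lower in the authors' deposited table, against 9.7% and 6.44% of all 6433 such genes with a window. The median log2 ratio of the 251 genes was -0.04, beside -0.02 for all genes with at least 1000 mean reads.

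The Chga window lacked the full element. Its core letters TGACG, or CGTCA on the other strand, were searched after the first result was seen. They were present in 20.8% of all windows and in 23.0% of genes with a window. Each full element contains both of these runs. Besides the 3 genes above, Chga, Scg3, Pcsk2 and Scg5 had at least 1 such core, and Pcsk1n had 0. In Chga it began 44 bases before the start and read on as TGACGtaa, which differs from the full element in 1 letter. Whether factors bind there was not tested. The 250 bases upstream of the Chga start are shown because of this near match, with the core in capitals:
Chga, plus strand of chr12:102554691-102554940: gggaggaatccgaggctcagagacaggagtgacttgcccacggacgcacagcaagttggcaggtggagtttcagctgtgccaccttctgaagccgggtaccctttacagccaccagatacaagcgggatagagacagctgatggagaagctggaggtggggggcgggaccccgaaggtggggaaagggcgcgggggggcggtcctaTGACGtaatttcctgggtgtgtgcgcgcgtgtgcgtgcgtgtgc

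STAT5, which acts below the prolactin receptor, binds sites of the form TTCNNNGAA. This motif was found in 8.3% of all windows and in 9.55% of genes with a window. Of the 8 genes, 2 had it, Scg2 and Scg5. Scg5 had 2 adjoining copies, which began 55 and 46 bases before its start, and Scg2 had 1. The Scg5 site is shown with both copies in capitals because it is the only window of the 8 with more than 1 copy:
Scg5, minus strand of chr2:113829123-113829152: aatgccTTCCAGGAATTCTGGGAAggcctc
The windows of Chgb and Pcsk1 did not hold these letters, and sequence outside the windows was not searched. Neither Scg2 nor Scg5 passed as higher. STAT5 binding was not measured, and a part for STAT5 in the values of any of these genes was not tested.

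Chgb, which encodes chromogranin B, had an authors' mean of 142625 reads in nonpregnant and 770721 reads in pregnant islets. The deposited fold change of 5.54 had an adjusted p of 9.05e-33 in the authors' deposited table. Chgb (ENSMUSG00000027350) lies on the plus strand of chromosome 2 at 132781278 to 132795079 of GRCm38. By mean reads it stood at rank 30 of all genes in nonpregnant islets and at rank 7 in pregnant islets. The 6 genes above it in the pregnant mean were Ins2, Ins1, Iapp, Gcg, Chga and the mitochondrial gene mt-Co1. Its gain of 628096 mean reads was the third in size of all genes, after those of Ins1 (1780847 reads) and Ins2 (1587001 reads). Among genes with at least 1000 mean reads, 50 had a larger log2 ratio. The most abundant of these 50 in pregnant islets was the acinar gene Ctrb1, with an authors' mean of 226845 reads.

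Chga, which encodes chromogranin A, had authors' means of 1175943 reads in nonpregnant and 1034988 reads in pregnant islets. It stood at 0.9-fold and did not pass (adjusted p = 0.426 in the authors' deposited table). Per kilobase of annotated exon, the ratio of Chgb to Chga was 0.122 in the nonpregnant mean and 0.749 in the pregnant mean, a 6.14-fold difference between the groups. Chga lies on the plus strand of chromosome 12 at 102554969 to 102565028 of GRCm38.

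**Figure D1:**
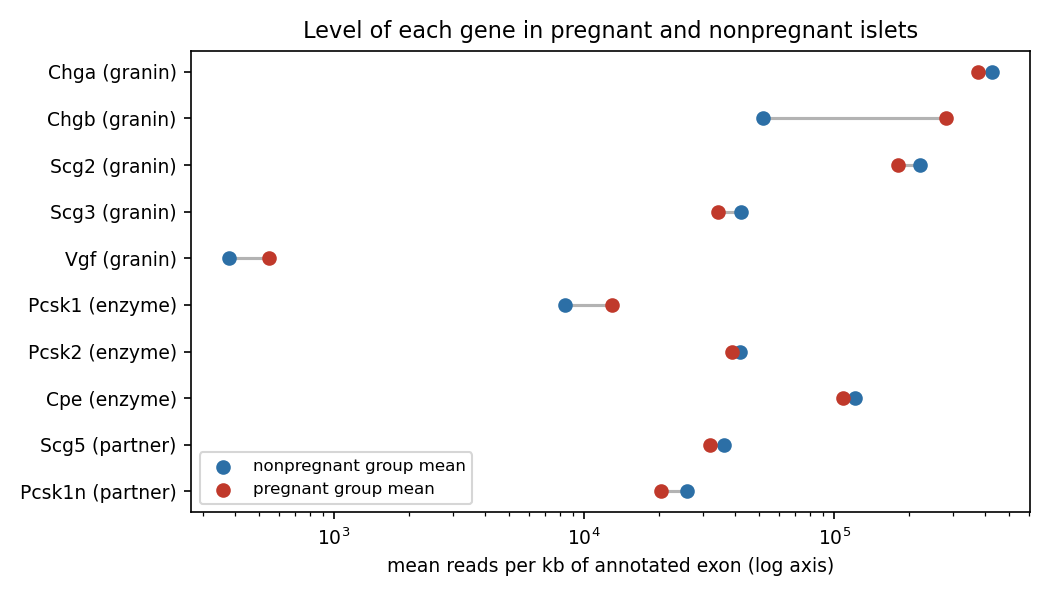
Mean reads per kilobase of annotated exon (horizontal log axis) for each gene, as 1 point for the nonpregnant and 1 for the pregnant group mean, joined by a line. Chgb has the widest gap of the 10 genes, from 52053 to 281285 reads per kilobase, and points have no error bars because 1 mean per group was deposited.

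Scg2, Scg3 and Vgf differed in direction and level, and none passed. Scg2 encodes secretogranin II, the precursor of secretoneurin, and had authors' means of 555568 reads in nonpregnant and 454549 reads in pregnant islets. Its fold change was 0.84 (adjusted p = 0.114 in the authors' deposited table). Scg3 encodes secretogranin III, which binds chromogranin A and granule membrane cholesterol. Its authors' means were 116167 and 94201 reads in the same order, with a fold change of 0.83 (adjusted p = 0.0852 in the authors' deposited table).

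Vgf, a neurotrophin-inducible precursor of several secreted peptides, was by far the least abundant of the 10 genes. Its authors' means were 1133 reads in nonpregnant and 1628 reads in pregnant islets. The fold change was 1.47, just outside the threshold (adjusted p = 0.0533 in the authors' deposited table). With the deposited p-values adjusted only over 15682 genes (those with at least 10 mean reads), its Benjamini-Hochberg value was 0.0421, so the call for Vgf turned on which genes were counted. By that adjustment 16.2% of genes passed.

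The make-up of the granin reads therefore differed between the group means. Chgb was 7.16% of the reads of the 5 granins in nonpregnant islets and 32.7% in pregnant islets, whereas Chga was 59.0% and 43.9%, and Scg2 27.9% and 19.3%. The 5 granins together took 2.36% of summed mean reads in nonpregnant and 2.69% in pregnant islets. Without Chgb the other 4 took 2.19% and 1.81%. These shares have no error, so their difference cannot be set against the spread between libraries.

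**Figure D2:**
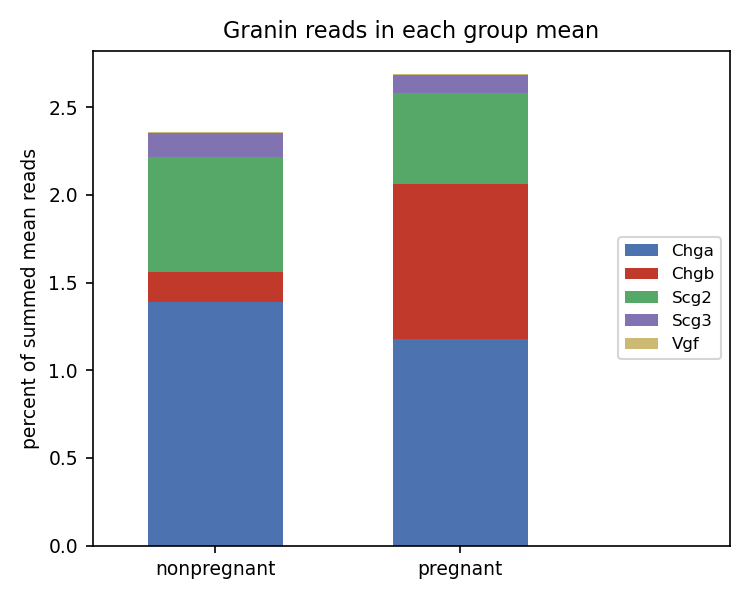
Share of each group's summed mean reads (vertical axis, percent, from 0) taken by the 5 granin genes, stacked for nonpregnant and pregnant islets. The Chgb part is 0.169% in the nonpregnant and 0.879% in the pregnant bar, and the Chga part is 1.39% and 1.18%.

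Among the enzymes only Pcsk1 passed. It encodes PC1/3, which starts the conversion of proinsulin in beta cells. Its authors' means were 47206 reads in nonpregnant and 72332 reads in pregnant islets, a fold change of 1.57 (adjusted p = 2.57e-05 in the authors' deposited table). Pcsk1 (ENSMUSG00000021587) lies on the plus strand of chromosome 13 at 75089826 to 75134861 of GRCm38.

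Pcsk2 encodes PC2, which also cuts proinsulin and makes glucagon from proglucagon in alpha cells. Its authors' means were 332621 reads in nonpregnant and 309751 reads in pregnant islets, at 0.95-fold (adjusted p = 0.847 in the authors' deposited table). Per kilobase of exon, the ratio of Pcsk1 to Pcsk2 was 0.2 in the nonpregnant and 0.33 in the pregnant mean. With the longest transcript as the length these ratios were 0.133 and 0.219. The difference between groups, 1.65-fold, does not depend on the length used. Antisense transcripts overlap exons of Pcsk2, and the one found in the table, Pcsk2os2, had 375 and 209 mean reads, few beside those of Pcsk2.

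Cpe had authors' means of 315831 reads in nonpregnant and 283413 reads in pregnant islets. Its fold change of 0.92 did not pass (adjusted p = 0.572 in the authors' deposited table). Cpe stayed the most abundant of the 3 enzymes per kilobase, at 121054 and 108629 reads per kilobase in the nonpregnant and pregnant means.

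The convertase partners were both on the lower side without passing. Scg5 had authors' means of 57061 reads in nonpregnant and 50131 reads in pregnant islets, at 0.9-fold (adjusted p = 0.417 in the authors' deposited table). Pcsk1n had authors' means of 56679 and 44611 reads, at 0.81-fold (adjusted p = 0.713 in the authors' deposited table). Pcsk1n thus had the lowest fold change of the 10 genes and a larger unadjusted p (0.345) than Scg2 at 0.84-fold (0.0185) in the authors' deposited table. The per-kilobase ratio of Pcsk1 to Pcsk1n was 0.326 in nonpregnant and 0.634 in pregnant islets, and that of Pcsk2 to Scg5 was 1.16 and 1.23. These ratios are of group means and were not tested.

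**Figure D3:**
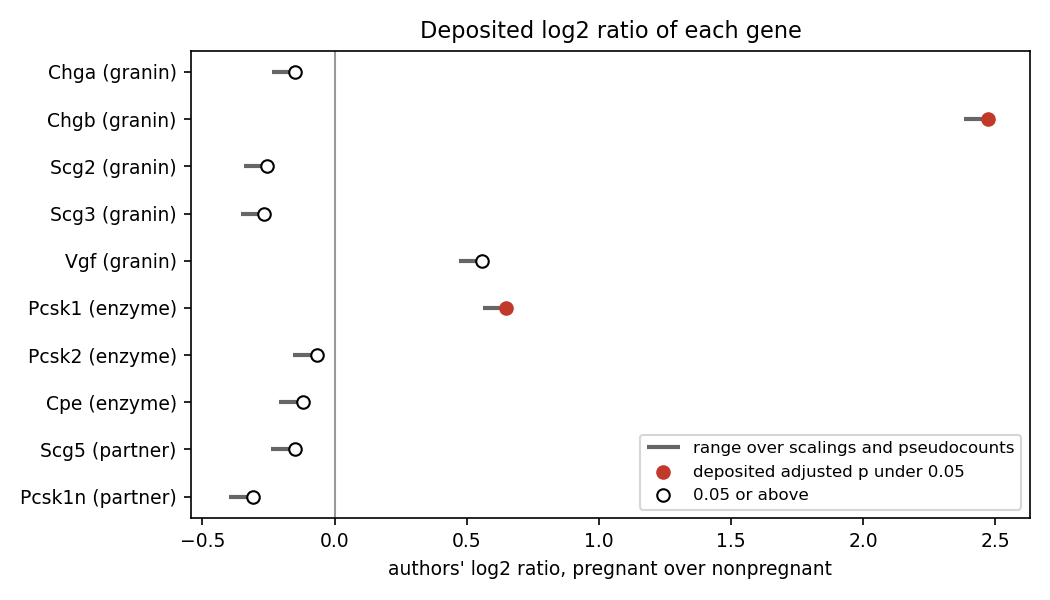
The authors' log2 ratio of pregnant over nonpregnant (horizontal axis) for each gene, filled where the deposited adjusted p is under 0.05, with a bar for the range over other scalings and pseudocounts. Chgb at 2.47 and Pcsk1 at 0.65 are filled, and no bar crosses 0.

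The 7 genes Chga, Scg2, Scg3, Pcsk2, Cpe, Scg5 and Pcsk1n had fold changes from 0.81 to 0.95 in the authors' deposited table. Over the 10 genes the median log2 ratio was -0.14, beside -0.02 over genes with at least 1000 mean reads, of which 52.7% had a log2 ratio below 0. At that depth, changes of this size seldom passed. The highest fold change called lower was 0.82 and the lowest called higher was 1.21 among genes with at least 1000 mean reads in the authors' deposited table. Of such genes with a fold change from 0.81 to 0.84, 35 were called lower and 441 were not called. The spread between libraries behind these calls cannot be shown from group means.

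**Figure D4:**
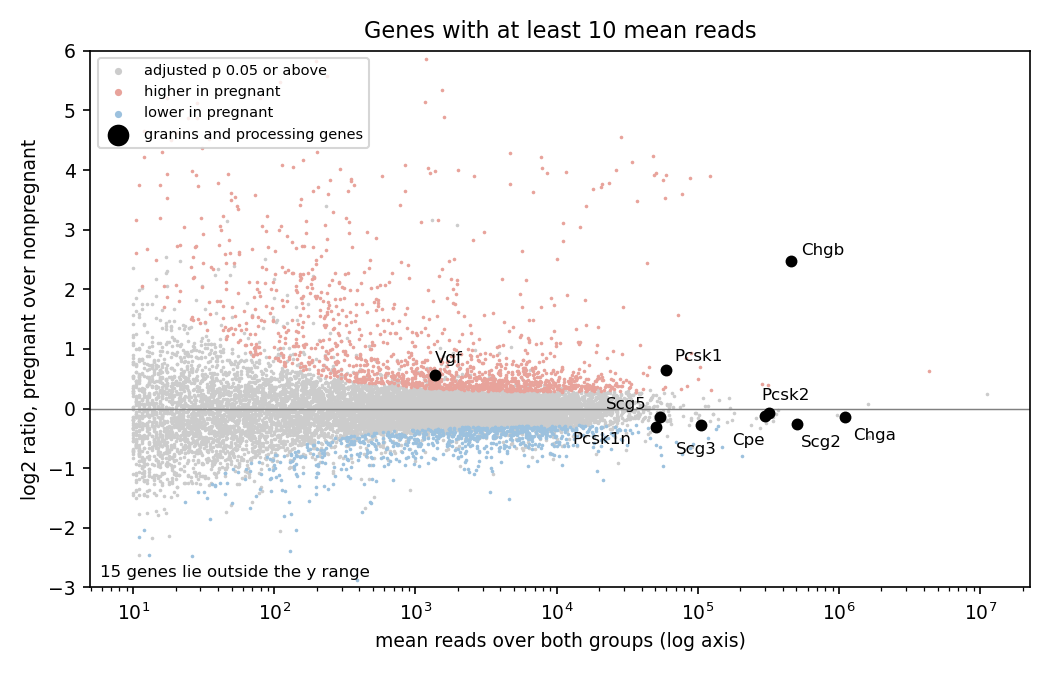
Log2 ratio of pregnant over nonpregnant (vertical axis) against mean reads over both groups (horizontal log axis) for 15682 genes with at least 10 mean reads, coloured by the deposited call, with the 10 genes in black. No gene with as many mean reads as Chgb has as large a log2 ratio, and 15 genes lie outside the vertical range.

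By level per kilobase of exon the nonpregnant order was Chga, Scg2, Cpe, Chgb, Scg3, Pcsk2, Scg5, Pcsk1n, Pcsk1 and Vgf. In the pregnant mean it was Chga, Chgb, Scg2, Cpe, Pcsk2, Scg3, Scg5, Pcsk1n, Pcsk1 and Vgf. Chgb moved from place 4 to place 2, and with the longest transcript as the length from place 5 to place 2. Which neighbours in these orders differ beyond the spread between libraries is not known. Pcsk1 was ninth in both orders, at 8424 reads per kilobase in nonpregnant and 12907 in pregnant islets.

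The genes with the log2 ratio nearest to that of Chgb, among those with at least 1000 mean reads, were Top2a (5.57-fold), Mki67 (5.67-fold) and Ivd (5.41-fold) in the authors' deposited table. Top2a and Mki67 are markers of dividing cells, and Ivd encodes an enzyme of leucine breakdown. The likeness is of 1 ratio between 2 group means. Their pregnant means of 2931, 3189 and 73699 reads were all far below that of Chgb.

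Of 28 genes listed for the granule's cargo, prohormones and neuropeptides, 27 were in the table. Among these 3 were higher and 0 lower in the authors' deposited table, a share near the 11.7% of all genes that passed. Ins1, an insulin gene, rose 1.55-fold (adjusted p = 1.61e-08), and Ins2 was at 1.18-fold without passing (adjusted p = 0.288), both in the authors' deposited table. These paralogs can share reads. Nucb2, the precursor of nesfatin-1, rose 2.1-fold, from an authors' mean of 12679 to 25942 reads (adjusted p = 6.9e-23 in the authors' deposited table). Penk, the enkephalin precursor, rose 8.33-fold from an authors' mean of 24 to 199 reads (adjusted p = 2.99e-24 in the authors' deposited table). The proglucagon gene Gcg was at 0.72-fold and did not pass (adjusted p = 0.0772 in the authors' deposited table). The list's median log2 ratio was 0.24 over its 23 genes that had at least 10 mean reads.

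Among 14 other processing enzymes, 1 was higher and 1 was lower in the authors' deposited table, beside 7.57% and 4.15% of all genes. The median log2 ratio was 0.03 over 13 genes with at least 10 mean reads. Qpctl, a glutaminyl cyclase of the Golgi, rose 1.43-fold (adjusted p = 7.93e-05 in the authors' deposited table). Pcsk6, a convertase of the constitutive pathway, fell to 0.78-fold (adjusted p = 0.0158 in the authors' deposited table). Furin, a convertase of the trans-Golgi network, was at 0.98-fold, and Pam, which amidates peptides, at 0.96-fold (adjusted p = 0.98 and 0.878 in the authors' deposited table).

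Genes of the granule membrane and of granule formation held 1 higher and 1 lower of 25 in the authors' deposited table (median log2 ratio 0.02). The shares over all genes were 7.57% higher and 4.15% lower. Rab3d, a granule GTPase, rose 1.94-fold with an authors' mean of 24990 reads in pregnant islets, and Slc30a8, the granule zinc transporter, fell to 0.66-fold (adjusted p = 3.4e-18 and 2.77e-07 in the authors' deposited table). Ptprn and Ptprn2, granule membrane proteins known as islet autoantigens, were at 1.07-fold and 1.03-fold without passing (adjusted p = 0.722 and 0.962 in the authors' deposited table).

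Transcription factors of neuroendocrine genes included 0 higher and 5 lower of 16 in the authors' deposited table (median log2 ratio -0.17). By the same rule 7.57% of all genes were higher and 4.15% lower, and 6.43% of genes with at least 1000 mean reads were lower. Myt1l and St18, related zinc finger factors, fell to 0.75-fold and 0.79-fold, and Foxa2 to 0.8-fold, with adjusted p-values of 0.00313, 0.0107 and 0.0245 in the authors' deposited table. Creb1 and Crem, whose products bind cyclic AMP response elements, fell to 0.77-fold and 0.79-fold (adjusted p = 0.0475 and 0.0415 in the authors' deposited table). Rest, a repressor of neuronal and granin genes, was low in both groups, with authors' means of 138 and 145 reads.

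**Figure D5:**
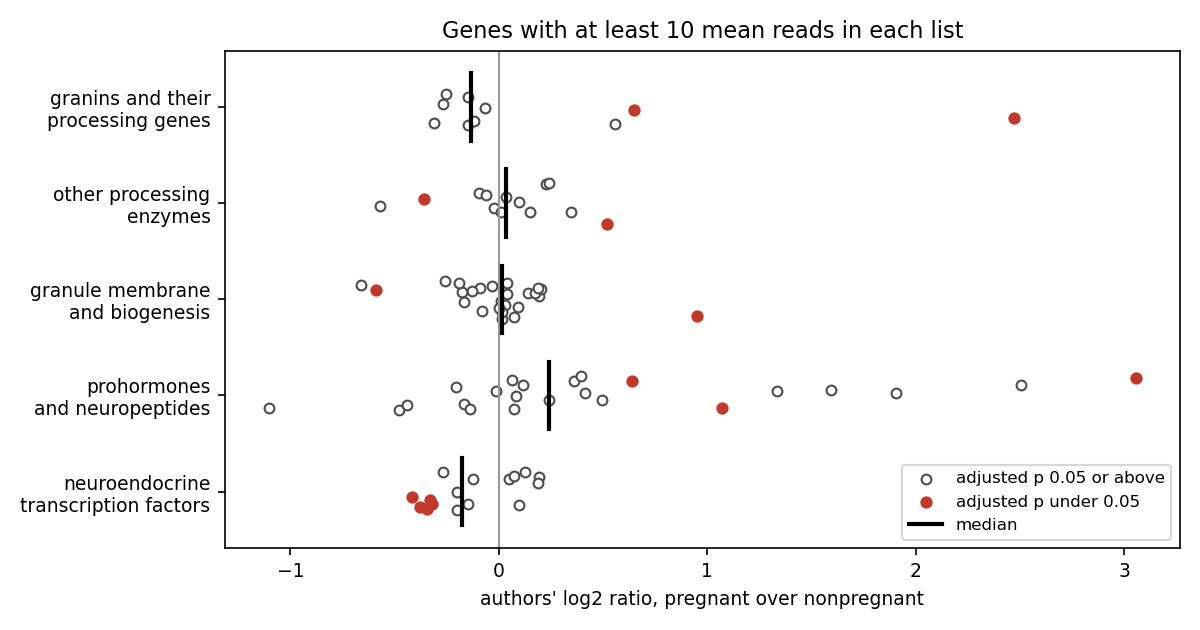
The authors' log2 ratio (horizontal axis) of each gene with at least 10 mean reads in the 10 granin and processing genes and in 4 related lists, filled where the deposited adjusted p is under 0.05, with a black line at each median. The 2 filled points of the top row are Pcsk1 and Chgb, and all 5 filled transcription factors lie below 0. Over all genes, 7.57% were called higher and 4.15% lower.

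Ins2, Gcg, Sst and Ppy, the defining hormone genes of islets, had authors' means of at least 241043 reads in both groups. Marker genes of each cell type were counted by the same rule, by which 7.57% of all genes were higher and 4.15% lower. Beta cell markers took 22.1% of summed mean reads in pregnant and 18.8% in nonpregnant islets, with 2 of 9 higher, Ins1 and G6pc2, and a median log2 ratio of 0.08. Most of these reads were of Ins1 and Ins2. Among the beta cell markers that did not pass, the deposited fold changes lay on both sides of 1. Ucn3 (0.91), Slc2a2 (0.83) and Nkx6-1 (0.96) were below it, and Ins2 (1.18), Pdx1 (1.14), Iapp (1.06) and Mafa (1.02) above. Alpha cell markers took 1.62% and 2.41%, with 3 of 7 lower (Ttr, Irx2 and Gc). Delta cell markers took 0.371% and 0.453%, with Hhex as the 1 of 4 lower and Sst not passing. Acinar markers took 1.52% and 0.111%, with 17 of 18 higher and Amy2a5 listed at 0 in the nonpregnant mean. Markers of ductal, endothelial, stellate, Schwann and sympathetic cells and of PP cells had 0 called in either direction, and 1 of 5 macrophage markers, Lyz2, was higher. In bulk islets, fewer cells of a type and less RNA per cell cannot be told apart, and the part of these differences in the granin values was not tested. Scaled to summed mean reads, the log2 ratio of Chgb was 2.38 with the acinar markers counted and 2.40 without them, beside 2.47 as deposited. Such a scaling shifts all genes by 1 constant, so it cannot test the part of acinar RNA in the value of Chgb.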

How the data were processed

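Reads were aligned and counted with TopHat2 2.0.12, Bowtie and HTSeq 0.5.3p3 on GRCm38, per the submitters' processing notes. Scaling before averaging, use of strand and the tool behind the test are not given in the sources used here. The authors deposited, per the file headers, 1 mean read count per group and gene, a linear ratio (fold change), its log2, a p-value and an adjusted p-value (FDR). Summed mean reads were 87654449 for pregnant and 84493872 for nonpregnant islets, and depth per library was not analysed here. The median excess of the deposited log2 ratio over the log2 ratio of read means was 0.04.

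A gene was called at a deposited adjusted p under 0.05. Nothing says what spread the authors' p-values measure, and the labels do not say that libraries came from separate animals. Gene lines were counted once (19963 lines, 19940 genes). Exon lengths came from GENCODE M21, and promoter windows from RefSeq. Python 3.11.15, pandas 2.3.3 and numpy 2.4.6 were used. The Benjamini-Hochberg step was tested on simulated p-values, and the pattern TTCNNNGAA only on a fixed string of letters. The planned motifs were TGACGTCA and TTCNNNGAA. Paired basic residues in the proteins were planned but not analysed here, and 1 listed gene is not reported here.

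The 10 genes and all lists were chosen with earlier results of these data known. Named were all 10 genes, genes of the 4 pathway lists that passed, Ins1, Ins2, Gcg, Pam and Furin, and the 3 genes nearest to Chgb in log2 ratio. Ptprn, Ptprn2, Rest, Ctrb1, Pcsk2os2 and single marker genes were named after their values were seen. Alternatives were other scalings, pseudocounts, thresholds, adjustments and transcript lengths.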

Additional observations from a re-analysis of the deposited data

How the results depend on the processing

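Each of 4 other scalings shifts all genes by 1 constant of at most 0.09 on the log2 scale, and pseudocounts of 0 and 10 hardly move genes with over 1000 reads, so these settings test the direction of the 10 genes little. Chgb ranged from 2.38 to 2.49 and Pcsk1 from 0.56 to 0.66. Scaling to summed mean reads would put the medians of the other processing enzymes (0.03) and of the granule membrane list (0.02) below 0. At an adjusted p under 0.1, 4 of the 10 genes passed (Scg3 as the 1 lower gene) in place of 2. Chgb and Pcsk1 passed under each threshold and adjustment run, Bonferroni over all genes included. Of all 19940 genes, 2337 passed as deposited, 3061 at an adjusted p under 0.1, 1458 under 0.01 and 644 by Bonferroni. No paired analysis was possible because only group means were deposited in the table used. Refits without single libraries, edgeR and DESeq2 were not run for the same reason.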

Other observations

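Some neuropeptide genes had large ratios without passing, and were picked here after their values were seen. Gal, the galanin precursor, went from an authors' mean of 26 to 147 reads in pregnant islets (5.68-fold, adjusted p = 0.0738 in the authors' deposited table). Tac1, the precursor of substance P, went from 53 to 194 reads (3.75-fold, adjusted p = 0.135 in the authors' deposited table). Pdyn, the dynorphin precursor, had authors' means of 4877 reads in nonpregnant and 2211 reads in pregnant islets (0.46-fold, adjusted p = 0.293 in the authors' deposited table).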
